A study of Mus musculus with 24 samples.

Results

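Tumour-associated macrophages (TAM) of post-sepsis mice were compared with TAM of naive mice, on 7 of the 24 arrays of the series: 4 of post-sepsis TAM and 3 of naive TAM (replicates 1, 3 and 4). All mice were C57BL/6 males of 10 weeks, per the labels. Post-sepsis TAM were isolated 14 days after sepsis was induced, naive TAM came from mice without sepsis, and both were taken on a Percoll gradient followed by 1 hour of adhesion. TAM naive replicate 2 was excluded by the submitters for its RNA amount and quality and enters no result unless it is named. Macrophages grown without polarisation from bone marrow (M0), 4 arrays from post-sepsis and 4 from naive mice after 7 days of culture with L929 supernatant, were used for 1 further comparison. Neither the tumour line nor the way sepsis was induced is named in the labels. Per the design text, 3 TAM experiments of 4 samples in each group were run, and the best 4 of 12 by absorbance ratios were kept. No label ties a sample to its experiment, so the p-values measure the spread between chosen samples only.

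TAM are macrophages of the tumour tissue, formed largely from blood monocytes. They clear dying cells, present antigen on MHC class II molecules, draw in other leukocytes with chemokines and supply factors for vessel growth. After sepsis, monocytes and macrophages are known for low MHC class II and low inflammatory cytokine output, and blood lymphocytes for their loss. An isolate by density and adhesion can hold other leukocytes, stroma and tumour cells, so their marker genes were read beside those of macrophages.

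Levels below are log2 processed signal minus the 75th percentile of the same array, so 0 is the level of a probe brighter than 75% of the array. Differences are post-sepsis minus naive on that log2 scale, ± SE of the limma fit with the slide as a block, n = 4 and 3 arrays. Values of single arrays are given in the order of replicates 1, 2, 3 and 4 for post-sepsis TAM and 1, 3 and 4 for naive TAM. A gene is said to have risen or fallen only if its adjusted p in that fit (Benjamini-Hochberg over all genes) was under 0.05. Levels of different probes are not set against each other.

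The 7 arrays lay on 3 slides, each with both groups. Slide 1 held post-sepsis replicates 1 and 4 and naive replicate 3, slide 2 held post-sepsis replicate 3 and naive replicate 4, and slide 3 held post-sepsis replicate 2 and naive replicate 1. The 75th percentile of signal was 602, 376, 694 and 616 in post-sepsis TAM, against 270, 398 and 397 in naive TAM. Between 58.4% and 66.7% of probes were well above background on each array, and no spot was saturated. Post-sepsis replicate 2 stood apart from its group: it correlated with the naive arrays at 0.964, 0.959 and 0.981 over all probes tested, but with the other post-sepsis arrays at only 0.933, 0.923 and 0.918, which among themselves reached 0.980 to 0.989. Counts over gene lists are therefore also given without that array. With the slide block such a fit rests on slides 1 and 2 only, because naive replicate 1 is then alone on slide 3.

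Of the 18 macrophage identity markers, 16 were measured, each well above background on all 7 arrays, among them Csf1r, the receptor of the macrophage growth factor CSF-1, and Adgre1, a surface marker of mouse macrophages. Spi1 and Cd163 did not pass the filter, which asks for signal well above background on 3 arrays of 1 group. All 14 fibroblast and stroma markers and all 13 melanocyte markers were also well above background on all 7 arrays, including the pigment genes Tyrp1, Dct and Pmel. T cell markers passed the filter for 25 of 29 genes, B cell markers for 18 of 20 and NK cell markers for 14 of 17.

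Without the slide block, limma called 0 of 28928 genes and unnamed probes, with 10931 at an unadjusted p under 0.05 (37.8%) and a smallest adjusted p of 0.1135. With the slide as a block, 9998 passed (34.6% of all tested), 2313 higher (8%) and 7685 lower (26.6%) in post-sepsis TAM. Of the 24889 genes and probes well above background on 3 arrays of both groups, 8.36% were higher and 21.9% lower. Among protein-coding genes the split was more even, with 11.9% higher and 14.9% lower, whereas 2.63% of lincRNA probes were higher and 41.0% lower. The median difference was 0.24 for coding genes and -0.58 for lincRNA probes. It depended on the scaling, with 0.20 and -0.18 under quantile scaling without the slide block. The groups did not overlap for 6606 genes and probes (22.8%), 2963 higher (10.2%) and 3643 lower (12.6%).

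These counts depended on which arrays entered the fit. With the slide block, limma called 0 genes without naive replicate 3 (9270 at an unadjusted p under 0.05) and 0 with naive replicate 2 added (7330 at that level). Naive replicate 3 is the only naive array used on slide 1, so without it that whole slide no longer adds to the difference. Without the block, leaving out post-sepsis replicate 2 gave 9736 called genes, 2109 higher and 7627 lower. Of the 122 genes followed through the alternatives, 109 passed with the slide block, 82 of these passed also in that fit, and 120 of 122 kept their sign.

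Lymphocyte genes were lower in post-sepsis TAM on every slide. Of the genes well above background on 3 arrays of both groups, 15 of 19 T cell genes, 9 of 11 NK and cytotoxic genes and 17 of 18 B cell genes fell, and none rose, where 21.9% of all such genes fell. Their median differences were -1.93, -1.81 and -2.96, where all genes tested had a median of -0.06. A further 6 T cell and 3 NK genes passed the filter through the naive arrays alone, where they were high, and are not read as support. In bulk samples, fewer cells of a type and less RNA per cell cannot be told apart. Leaving out post-sepsis replicate 2, 18 of all 25 T cell genes tested, 11 of 14 NK genes and 17 of 18 B cell genes fell with the slide block. Without the block 18, 9 and 13 fell, and 1 T cell gene rose. Of all 28928 genes and probes, 6756 fell and 1153 rose without that array with the block, and 7627 and 2109 without the block. These totals also stand beside the list counts without that array given below. The T cell and NK counts of these 2 fits include the genes that passed the filter through the naive arrays alone.

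Cd2, an adhesion receptor of T and NK cells, was at -0.70, -1.52, -4.34 and 0.27 in post-sepsis TAM, against 1.12, 3.07 and 1.19 in naive TAM. All 4 post-sepsis arrays lay below the 3 naive arrays, and the difference was -3.77 ± 0.54, a 13.6-fold lower level (limma, adjusted p = 0.011). Cd3g, a chain of the T cell receptor complex, was at -3.85, -3.82, -6.83 and -3.35 in post-sepsis TAM, against -1.27, -0.58 and -2.40 in naive TAM. Its groups did not overlap, post-sepsis replicate 3 was the lowest array, and only 2 of 4 post-sepsis arrays were well above background. Cd3g thus passed the filter through the naive arrays alone and is not read as support. Il2rb, a chain of the receptors for interleukins 2 and 15, was at -2.79, -2.34, -4.32 and -1.82 in post-sepsis TAM, against -0.04, 0.04 and -1.25 in naive TAM. It fell by 2.55 on the log2 scale (SE 0.30, limma, adjusted p = 0.011), with no overlap between the groups. Icos and Cd28, both co-stimulatory receptors, had differences of -2.93 ± 0.30 and -1.93 ± 0.20. Of the 25 T cell genes, 5 did not pass, among them Cd4 at 0.41 ± 0.22 (adjusted p = 0.176) and the regulatory T cell factor Foxp3 at -0.34 ± 0.21 (adjusted p = 0.246).

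Among cytotoxic genes, the granzyme Gzma was at -1.13, -1.39, -1.61 and -0.09 in post-sepsis TAM, against 1.16, 0.92 and -0.07 in naive TAM. The groups were separate, though post-sepsis replicate 4 and naive replicate 4 were nearly level. Klrd1, a subunit of NK receptors, differed by -2.38 ± 0.38 (limma, adjusted p = 0.011). Tbx21, the transcription factor of type 1 responses, passed the filter through the naive arrays alone, at -3.56, -4.01, -4.60 and -2.55 in post-sepsis TAM, against -1.01, -1.33 and -1.96 in naive TAM. The cytokine of these cells, Ifng, differed by -1.92 ± 0.37 with overlapping groups. Ltb, which encodes a lymphotoxin chain made by lymphocytes, was at -0.44, -0.65, -3.07 and 0.48 in post-sepsis TAM, against 1.38, 3.44 and 1.502 in naive TAM. It had a 10.2-fold lower level, and post-sepsis replicate 3 was again the lowest array. P2ry10, a lipid receptor of lymphocytes, and Sorl1, a sorting receptor, fell as well, by 2.87 each on the log2 scale, without overlap.

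Of these 3 lymphocyte lists, the B cell genes differed most between slides. Their median within slides 1, 2 and 3 was -3.48, -4.41 and -0.93, so the fall on slide 3, which holds post-sepsis replicate 2, was the smallest. Cd79b, a chain of the B cell receptor, was at -0.61, -0.18, -3.18 and 0.47 in post-sepsis TAM, against 0.56, 3.89 and 1.59 in naive TAM. Naive replicate 1 lay just above post-sepsis replicate 4, naive replicate 3 was the highest array, and the difference was -3.24 ± 0.71 (limma, adjusted p = 0.0166). Tnfrsf13c, the receptor of the B cell survival factor BAFF, differed by -3.71 ± 0.70 and the follicle-homing receptor Cxcr5 by -3.87 ± 0.77. Plasma cell genes did not move as 1 block: Jchain and Mzb1 fell (-2.06 ± 0.61 and -1.995 ± 0.39), whereas Sdc1, which epithelial and tumour cells also carry, rose by 0.98 ± 0.18. Of the 5 tested 4 fell and 1 rose. Without post-sepsis replicate 2, 2 fell with the slide block and 0 without it, and 1 rose in either fit. Of 11 lymphoid transcription factors and related genes 5 fell, Id3 rose and 5 did not pass, with a median of -0.90 (26.6% of all genes fell). Of the 10 well above background on 3 arrays of both groups, 4 fell and 1 rose, where 21.9% of all such genes fell and 8.36% rose. Of the 11, Ikzf1 (Ikaros) fell by 2.32 on the log2 scale (SE 0.30) and Satb1 by 2.44 (SE 0.46), both without overlap. When post-sepsis replicate 2 was left out, 4 of the 11 fell with the slide block and 5 without it, and none rose.

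**Figure D1:**
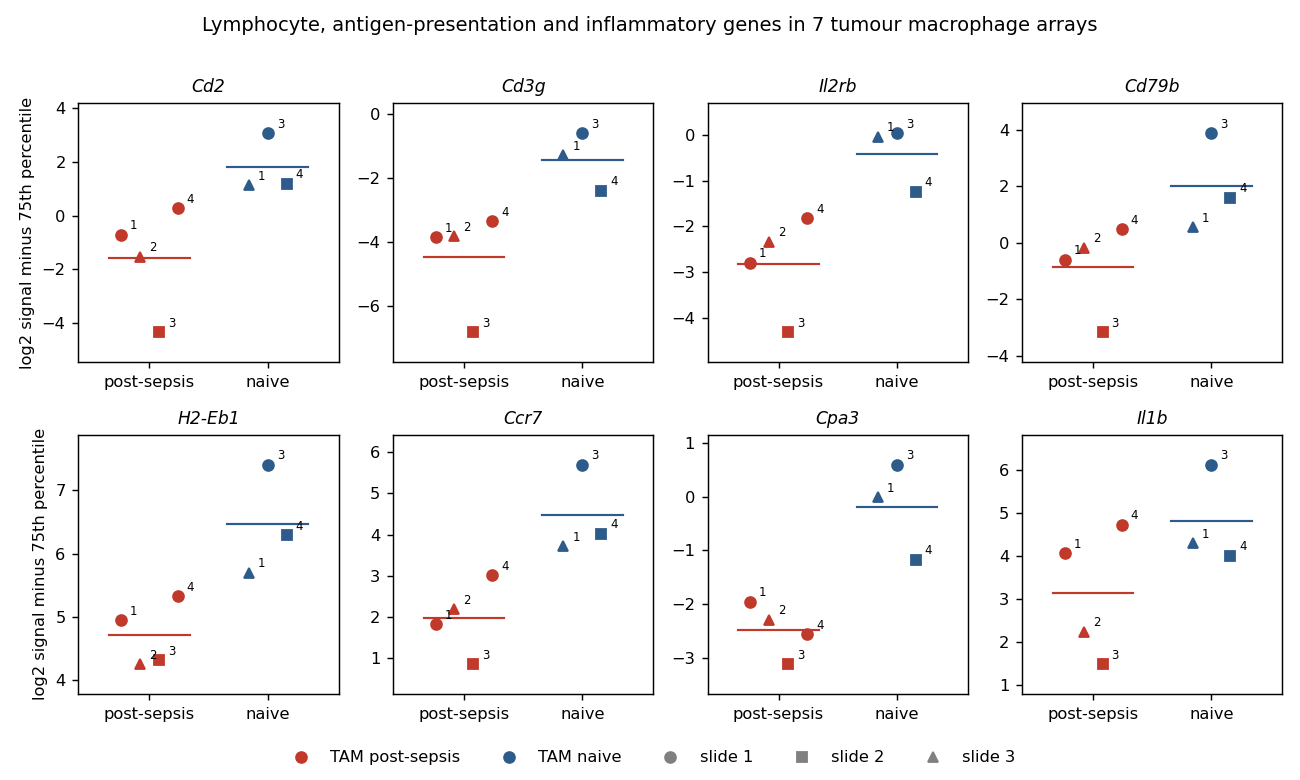
Log2 level (processed signal minus the array's 75th percentile) of 8 genes on each of 4 post-sepsis and 3 naive TAM arrays; numbers are replicates, shapes are slides and lines are group means. For Cd2, Cd3g, Il2rb, Cd79b, H2-Eb1, Ccr7 and Cpa3 every post-sepsis array lies below every naive array, and for Il1b the groups overlap. Cd3g passed the filter through the naive arrays alone.

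Class II molecules show peptides of ingested material to CD4+ T cells. Of 16 listed genes of class II presentation 14 were measured, 10 fell and none rose (26.6% of all genes fell), all 10 of them well above background on 3 arrays of both groups. They were the classical chains H2-Aa, H2-Ab1, H2-Eb1 and H2-Eb2, the invariant chain Cd74, the peptide-loading chains H2-DMa and H2-DMb1, their modulators H2-Oa and H2-Ob, and the transactivator Ciita. The median was -1.72, and -1.85, -1.80 and -1.18 within slides 1, 2 and 3. Without post-sepsis replicate 2 the count was 10 with the slide block and 8 without it, where 1 gene was higher.

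Class II promoters share a set of elements that includes the Y box, an inverted CCAAT element. The core TGATTGG (reverse complement CCAATCA, both strands searched, no other motif searched) lay within 250 bases upstream of the start site for 8 of the 12 listed genes that have a RefSeq promoter (GRCm38.p6), against 7.23% of 32851 promoters. It was there in 6 of the 7 that fell (all but H2-DMa), and also in Rfx5 and H2-DMb2, which did not pass the filter and have no call. Ctss, Rfxank and Ifi30, which were tested and did not fall, did not hold it. The 7 that fell are all H2 genes, whereas Ctss, Rfxank and Ifi30 are not. Among the tested genes with a promoter, the fall thus cannot be told apart from the kind of gene. A link between the core and the fall was not tested. The last 120 bases before the start site are printed for the 6 fallen genes to show where the core lies, from chr17:34092259-34092378 on the plus strand (H2-Oa), chr17:34153071-34153190 on the plus strand (H2-DMb1), chr17:34238785-34238904 on the plus strand (H2-Ob), chr17:34287824-34287943 on the minus strand (H2-Aa), chr17:34305747-34305866 on the plus strand (H2-Eb1) and chr17:34325555-34325674 on the plus strand (H2-Eb2). Each reads 5′ to 3′ along its gene, with the core in capitals.
H2-Oa: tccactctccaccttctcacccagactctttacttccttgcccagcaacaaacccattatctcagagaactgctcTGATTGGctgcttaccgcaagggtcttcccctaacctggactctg
H2-DMb1: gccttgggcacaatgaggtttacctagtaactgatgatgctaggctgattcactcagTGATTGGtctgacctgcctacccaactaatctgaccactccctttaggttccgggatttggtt
H2-Ob: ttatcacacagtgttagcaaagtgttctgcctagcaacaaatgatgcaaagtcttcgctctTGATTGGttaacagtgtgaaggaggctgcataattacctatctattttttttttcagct
H2-Aa: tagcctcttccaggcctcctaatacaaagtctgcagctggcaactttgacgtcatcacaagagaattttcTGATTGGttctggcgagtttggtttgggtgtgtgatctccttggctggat
H2-Eb1: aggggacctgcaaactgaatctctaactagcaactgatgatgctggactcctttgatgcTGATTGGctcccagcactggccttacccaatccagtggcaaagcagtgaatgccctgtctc
H2-Eb2: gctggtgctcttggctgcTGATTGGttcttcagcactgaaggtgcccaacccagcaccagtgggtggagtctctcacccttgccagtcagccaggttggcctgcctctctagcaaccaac
The core ended 38 to 56 bases before the start site in H2-Oa, H2-DMb1, H2-Ob, H2-Aa and H2-Eb1, and 95 bases before it in H2-Eb2. A match describes the letters of the window and not binding.

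H2-Oa, which B cells and some dendritic cells use to restrain peptide loading, was at -2.39, -2.30, -3.71 and -1.22 in post-sepsis TAM, against -0.82, 1.84 and 0.01 in naive TAM. Its groups did not overlap and its difference of -3.02 ± 0.50 was an 8.11-fold lower level (limma, adjusted p = 0.011). H2-DMb1, which loads peptide, was at 1.30, 0.87, 0.40 and 1.62 in post-sepsis TAM, against 2.04, 4.21 and 2.60 in naive TAM. The beta chain H2-Ab1 was at 5.30, 4.50, 4.82 and 5.73 in post-sepsis TAM, against 5.92, 7.75 and 6.61 in naive TAM. In both genes every post-sepsis array was lower than every naive array, and naive replicate 3 was the highest. For H2-Aa the groups overlapped, at 1.03, -0.32, 0.42 and 1.64 in post-sepsis TAM, against 1.39, 2.59 and 2.56 in naive TAM. Ciita differed by -1.17 ± 0.21 with overlapping groups, and the class II protease Ctss by -0.32 ± 0.26, which did not pass (adjusted p = 0.372). Of the 16 MHC class I genes measured, 14 passed in neither direction (14.9% of coding genes fell). The peptide transporter Tap2 and the transactivator Nlrc5 fell. Neither fell without post-sepsis replicate 2, where 1 class I gene rose with or without the slide block.

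Dendritic cell genes were lower in part. Of genes of type 2 and monocyte-derived dendritic cells, 7 of 11 measured fell, and of those of migratory dendritic cells 7 of 14 fell and 2 rose, where 26.6% of all genes fell and 8% rose. Of the migratory list, 6 of the 12 genes well above background on 3 arrays of both groups fell. Ccr7, the receptor that leads dendritic cells to lymph nodes, was at 1.82, 2.18, 0.86 and 3.01 in post-sepsis TAM, against 3.72, 5.70 and 4.02 in naive TAM. It fell by 2.73 on the log2 scale (SE 0.43, limma, adjusted p = 0.011), and no naive array lay in the range of the post-sepsis arrays. Cd83, a mark of mature dendritic cells, was at 2.82, 2.05, 1.19 and 3.30 in post-sepsis TAM, against 3.81, 5.46 and 4.08 in naive TAM, again without overlap. Clec9a, which takes up dead cells in type 1 dendritic cells, differed by -1.97 ± 0.36 and the cross-presentation factor Wdfy4 by -1.88 ± 0.23. They were chosen from the type 1 list for their small p, and that list did not move as a whole: of its 7 genes well above background on 3 arrays of both groups 3 fell and 4 did not pass, and the median of -0.07 was close to that of all genes. Without post-sepsis replicate 2, 7 migratory dendritic cell genes fell and 1 rose with the slide block, and 5 fell and 2 rose without it. Of the type 2 and monocyte-derived list, 7 fell with the block and 6 without it.

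Among ligands that signal to T cells, 7 of 14 fell and 1 rose (26.6% of all genes fell). The co-stimulator Cd40 was at -1.20, -2.39, -1.85 and -1.28 in post-sepsis TAM, against -1.01, 0.41 and -0.9951 in naive TAM. Pdcd1lg2, the second ligand of PD-1, was at -3.34, -3.34, -3.87 and -2.64 in post-sepsis TAM, against -2.21, -1.45 and -2.33 in naive TAM. The groups were separate in both genes, with differences of -1.33 ± 0.22 and -1.42 ± 0.24 (limma, adjusted p = 0.011 each). Lgals9, the galectin ligand of TIM-3, rose by 0.80 ± 0.20 with overlapping groups. Leaving out post-sepsis replicate 2, 6 ligands fell with the slide block and 3 without it, and 1 rose in either fit.

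Receptors that guide leukocytes fell in 14 of 19 measured genes, against 26.6% of all genes, and none rose. Cxcr2 was 1 of the 14 and passed the filter through the naive arrays alone, which leaves 13 of 18. Their median was -1.74, and -1.65, -1.70 and -1.36 within the slides. The fallen genes span receptors of lymphocytes (Ccr6, Ccr9, Cxcr5, Cxcr6), of eosinophils (Ccr3), of inflammatory monocytes (Ccr2) and of neutrophils and other phagocytes (Fpr1, Fpr2, C5ar1, Ptafr, Ltb4r1). Fpr1, a receptor of bacterial formyl peptides, was at -2.01, -3.74, -4.09 and -1.13 in post-sepsis TAM, against -0.94, 0.95 and -2.21 in naive TAM. The groups overlapped over all arrays, because post-sepsis replicates 1 and 4 on slide 1 were higher than naive replicate 4 on slide 2, but within each slide the post-sepsis arrays were lower (-2.52, -1.89 and -2.80). With post-sepsis replicate 2 left out, 13 of the 19 fell with the slide block and 8 without it.

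Granulocyte lists also had medians below 0 on every slide, over all members that passed the filter. Within slides 1, 2 and 3 they were -1.871, -1.623 and -1.145 for neutrophil genes, with the smallest fall on slide 3. For mast cell and basophil genes they were -2.273, -1.734 and -2.16, and for eosinophil genes -1.365, -0.9543 and -1.319, with the smallest fall on slide 2. Of genes well above background on 3 arrays of both groups, 7 of 12 neutrophil, 3 of 5 eosinophil and 4 of 6 mast cell and basophil genes fell, and none rose, where 21.9% of all such genes fell. Over all members that passed the filter, some of them through the naive arrays alone, the counts were 10 of 17, 4 of 6 and 6 of 8. S100a9, a calcium-binding alarmin of neutrophils and monocytes, was at 4.85, 3.45, 0.68 and 5.52 in post-sepsis TAM, against 6.04, 8.10 and 5.01 in naive TAM. Its groups overlapped, and post-sepsis replicate 3 was by far the lowest array. The mast cell carboxypeptidase Cpa3 was at -1.96, -2.29, -3.11 and -2.55 in post-sepsis TAM, against -0.0047, 0.60 and -1.17 in naive TAM. It fell by 2.41 on the log2 scale (SE 0.27, limma, adjusted p = 0.011), with separate groups. Hdc, which makes histamine, was at 1.38, 0.22, -1.32 and 2.06 in post-sepsis TAM, against 2.77, 4.63 and 1.55 in naive TAM. Its 2 groups overlapped, and its differences within the slides were -2.92, -2.88 and -2.55. When post-sepsis replicate 2 was left out, 6 of the 8 mast cell and basophil genes fell with the slide block and 4 without it. The neutrophil count was then 11 with the block but 3 without it, where 1 gene rose, and the eosinophil count 3 and 4.

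Of the interleukin-1 and inflammasome genes 4 of 14 fell, of the Fc receptor and oxidase genes 7 of 14, and of the chemokines 8 of 24 with 2 higher, where 26.6% of all genes and 14.9% of coding genes fell. The interleukin-1 and chemokine shares lie near that of all genes. Il1rn, the antagonist of the interleukin-1 receptor, and Il1r2, its decoy receptor, fell beside Il1b and the sensor Nlrp3. Nlrp3 was at -2.11, -2.20, -2.92 and -1.60 in post-sepsis TAM, against -1.11, -0.22 and -1.28 in naive TAM, with separate groups and a difference of -1.48 ± 0.23. The attractant of monocytes and T cells Ccl3 was at 4.28, 2.41, 2.17 and 5.02 in post-sepsis TAM, against 5.02, 6.21 and 4.42 in naive TAM. Its groups overlapped, and within the slides the differences were -1.56, -2.25 and -2.61. Rac2, the small GTPase of the leukocyte oxidase, was at 0.33, -0.76, -0.95 and 0.75 in post-sepsis TAM, against 1.17, 2.95 and 1.2 in naive TAM, and Ncf4, a subunit of that oxidase, was at 1.08, -0.12, -0.04 and 1.66 in post-sepsis TAM, against 2.04, 3.28 and 1.72 in naive TAM. In both genes the groups did not overlap, and the differences were -2.19 ± 0.22 and -1.94 ± 0.23 (limma, adjusted p = 0.011 each). The Fc gamma receptors Fcgr1, Fcgr2b, Fcgr3 and Fcgr4 and the oxidase core Cybb did not pass. The T cell attractant Cxcl10 and the monocyte attractant Ccl8 rose (0.64 ± 0.20 and 1.37 ± 0.38), both with overlapping groups. These counts depended on post-sepsis replicate 2 and the block. Without that array and with the block, 4 interleukin-1 genes, 6 Fc receptor and oxidase genes and 4 chemokines fell, and without both only 1, 1 and 2. No chemokine rose without that array and with the block, so the calls of Cxcl10 and Ccl8 were lost there, and 2 chemokines rose without both.

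Of the pattern receptors, Tlr1, Tlr2, Tlr6 and Tlr13 fell, and so did the co-receptor Cd14, while Tlr4 rose. Tlr3 and Tlr8 passed the filter through 1 group alone, and no call is given for them. Of the list, 5 of 17 genes well above background on 3 arrays of both groups fell, near the 21.9% of all such genes. Tlr4, the receptor of lipopolysaccharide, was at -0.70, -1.03, -0.89 and -0.81 in post-sepsis TAM, against -1.61, -1.49 and -1.41 in naive TAM. The groups were separate, and the rise was small, 0.62 ± 0.19 (limma, adjusted p = 0.0414). Tlr2, which binds bacterial lipoproteins, was at 1.51, 0.01, 0.20 and 1.74 in post-sepsis TAM, against 1.67, 2.84 and 0.92 in naive TAM, with overlap. The adaptors Myd88, Ticam1 and Tirap did not pass. Over the 19 measured members the median was -0.11, close to the -0.06 of all genes. Without post-sepsis replicate 2, 5 of the 19 fell and 1 rose with the slide block, and 1 fell and 2 rose without it.

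Macrophage identity genes mostly did not pass. Of 16 measured, 12 passed in neither direction, 3 fell (Itgam, Cd14 and Tyrobp) and 1 rose (C1qc, a chain of the complement starter C1q). For comparison, 14.9% of coding genes fell and 11.9% rose. Csf1r was at 3.36, 1.53, 3.17 and 3.56 in post-sepsis TAM, against 2.11, 3.24 and 2.30 in naive TAM. Adgre1 was at 0.54, -1.71, 0.03 and 0.05 in post-sepsis TAM, against -0.95, -0.11 and -0.93 in naive TAM, and both genes had overlapping groups with post-sepsis replicate 2 lowest of all 7 arrays. The mean level of the list was 1.31, -0.23, 0.80 and 1.17 in post-sepsis TAM, against 0.52, 1.05 and 0.63 in naive TAM, so post-sepsis replicate 2 was also the lowest array for the list as a whole. Without that array, 3 rose and 3 fell with the slide block, and 4 rose and 1 fell without it.

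Itgam, which encodes CD11b, a chain of the complement receptor 3 of phagocytes, had 3 probes, all with a lower mean in post-sepsis TAM but by unequal amounts, with differences of group means of -2.17, -0.48 and -0.45. The brightest probe, which stood for the gene, was at 4.87, 7.53, 5.48 and 4.31 in post-sepsis TAM, against 8.44, 7.19 and 7.52 in naive TAM. The second probe was at -1.37, -2.18, -1.99 and -0.95 in post-sepsis TAM, against -1.14, -0.82 and -1.45 in naive TAM. The third was at -2.49, -2.41, -2.74 and -2.37 in post-sepsis TAM, against -2.02, -1.78 and -2.37 in naive TAM. The first separates all arrays but post-sepsis replicate 2 by group, the groups overlap on the second, and on the third post-sepsis replicate 4 and naive replicate 4 were level with every other post-sepsis array below the naive ones. The sequences show what differs between the first and second: the first 30 bases of the brightest probe (mm9, chr7:135261755-135261814) are a run of CA, with 6 units in capitals, and those of the second (mm9, chr7:135260275-135260334) hold no such run. The next pair are bases of the probes of Csf3r, the receptor of granulocyte growth factor (bases 31 to 60, mm9, chr4:125721478-125721537), and of Mlxipl, the sugar-sensing factor ChREBP (bases 30 to 59, mm9, chr5:135614195-135614252), with a run of 13 bases that both hold in capitals.
Itgam brightest probe: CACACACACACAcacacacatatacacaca
Itgam second probe: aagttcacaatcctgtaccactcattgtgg
Csf3r probe: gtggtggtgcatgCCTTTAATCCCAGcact
Mlxipl probe: gatgcacaCCTTTAATCCCAGtacttggga
Mlxipl fell by 1.83 on the log2 scale (SE 0.29) with this probe, while its other probe was at -0.23, -2.20, -1.30 and 0.29 in post-sepsis TAM, against -1.33, -1.62 and -0.73 in naive TAM, with overlap. The calls for Itgam and Mlxipl rest on the brightest probe of each. Csf3r was at 7.19, 9.14, 7.35 and 7.12 in post-sepsis TAM, against 9.88, 9.003 and 8.86 in naive TAM, where post-sepsis replicate 2 lay among the naive arrays.

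Probes with GAA and GGA repeats, probes with the run shared by Csf3r and Mlxipl, and probes of olfactory receptors were lower in post-sepsis TAM as classes, with median differences of -1.49, -1.52, -1.48 and -0.96. GAA repeats (GAAGAAGAAGAA, 83 probes) had a median level of 4.18, 5.15, 4.66 and 4.21 in post-sepsis TAM, against 6.53, 5.86 and 5.85 in naive TAM, and 72 of 79 tested fell. GGA repeats (GGAGGAGGAGGA) fell in 39 of 48 and probes with the shared run in 10 of 14. CA repeats (CACACACACACA) had no clear direction as a class: 54 of 178 fell, near the 26.6% of all, and their median difference was 0.26. Their median level went the other way, at 4.07, 4.06, 3.73 and 4.14 in post-sepsis TAM, against 4.56, 4.25 and 4.70 in naive TAM. The 1200 olfactory receptor probes had a median of -6.57, -5.69, -6.58 and -6.64 in post-sepsis TAM, against -4.77, -5.52 and -5.64 in naive TAM. For GAA, GGA, shared-run and olfactory receptor probes, but not for CA repeats, the median of post-sepsis replicate 2 was the nearest of its group to the naive arrays. Ribosomal protein probes, by contrast, were at 7.42, 7.25, 7.09 and 7.12 in post-sepsis TAM, against 6.76, 7.10 and 7.28 in naive TAM, with overlap. The part of these probe classes in the counts was not tested, except that without the repeat probes 9856 genes passed, 2317 higher and 7539 lower.

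The largest falls among genes with separate groups were those of Ssty1, LOC100040235, Gm20877, Gm20822 and 4921509O09Rik, by 3.88 to 4.58 on the log2 scale. Ssty1, Gm20877 and Gm20822 are annotated on the Y chromosome, where mice carry many copies of a few gene families used in sperm formation. Ssty1 was at -2.36, 1.89, -3.61 and -3.02 in post-sepsis TAM, against 3.89, 2.78 and 2.38 in naive TAM. Post-sepsis replicates 1, 3 and 4 were far below the rest, and post-sepsis replicate 2 lay closer to the naive arrays than to its own group. The mean of 10 probes of Ssty1, Sly and Orly was -3.15, -0.56, -3.50 and -3.47 in post-sepsis TAM, against 1.01, 0.34 and -0.26 in naive TAM, while the single-copy Y genes Ddx3y and Eif2s3y passed in neither direction. M0 arrays spread over the same range, from -3.32 to 1.09. With the level of these probes as a covariate and no slide block, limma called 1 gene (2398 at an unadjusted p under 0.05), and 30 of the 122 followed genes turned their sign. That level was lower on every post-sepsis array than on every naive array, so this fit can hardly separate it from the group. Ssty1 is also part of the covariate and 1 of the 30. The T cell median was -1.52 in that fit, the class II median -2.14 and the mitosis median 0.07. Other lists moved down as well: macrophage identity was at -1.25 and fibroblast and stroma at -1.24, against 0.10 and 0.26 with the slide block.

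**Figure D2:**
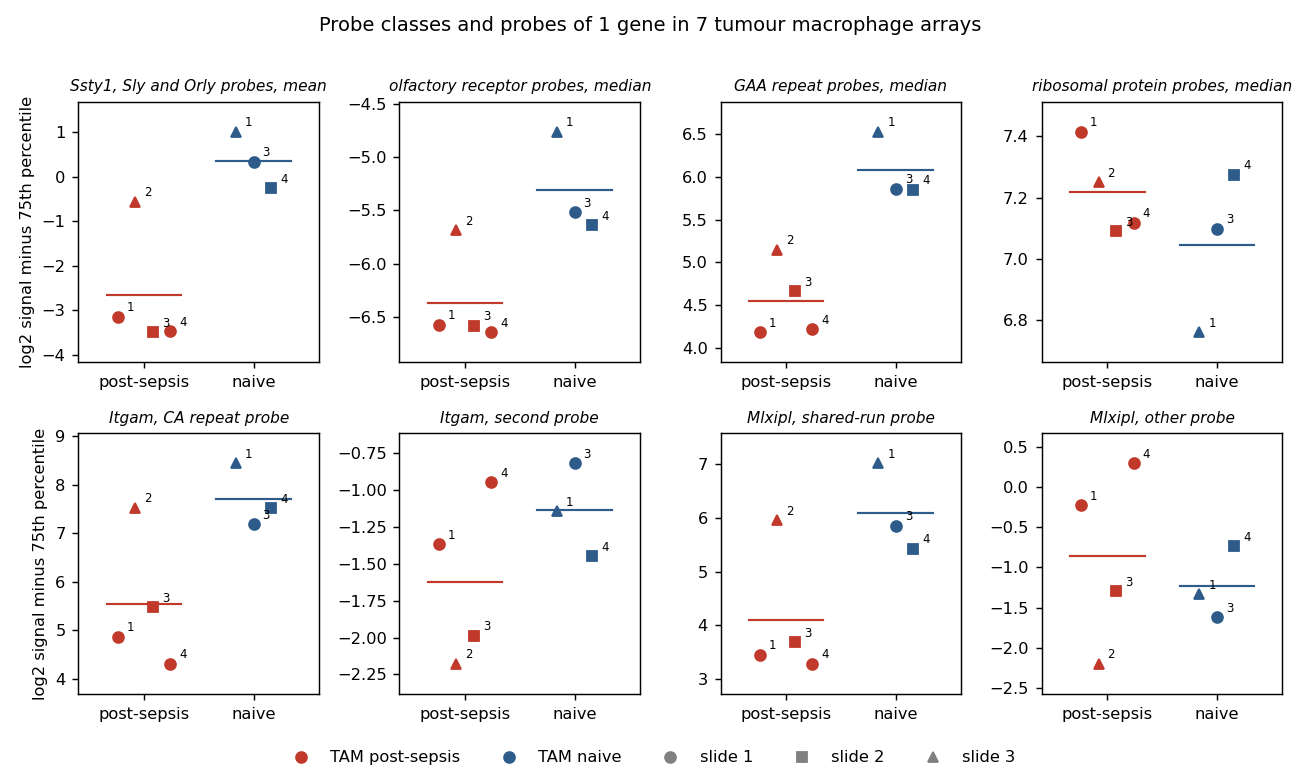
Upper row: mean or median log2 level of 4 probe classes on 4 post-sepsis and 3 naive TAM arrays; lower row: single probes of Itgam and Mlxipl (numbers are replicates, shapes are slides, lines are group means). Post-sepsis replicate 2 lies nearer to the naive arrays than the other post-sepsis arrays do for Y, olfactory and GAA repeat probes, and for Itgam and Mlxipl the difference is more negative on the repeat or shared-run probe than on the other.

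Of 17 uptake receptors and ligands measured, 2 rose, Marco and the integrin chain Itgav, near the 11.9% of coding genes that rose, Stab2 fell, and 14 did not pass, among them Mertk, Axl, Msr1 and Cd36. Cd5l and Marco are described for their place among the largest rises with separate groups. Cd5l, a secreted protein of tissue macrophages that guards against cell death and binds lipids and microbes, was at 0.93, -1.75, -0.86 and 1.01 in post-sepsis TAM, against -2.25, -2.44 and -2.54 in naive TAM. The groups were separate and the difference was 2.01 ± 0.51, a 4.04-fold higher level (limma, adjusted p = 0.0253), with 3.41, 1.68 and 0.49 within slides 1, 2 and 3. Marco, a receptor that takes up bacteria and particles, was at 0.83, -1.09, 0.03 and 0.64 in post-sepsis TAM, against -1.81, -1.72 and -1.68 in naive TAM. It rose by 1.71 ± 0.33 (limma, adjusted p = 0.0125), and the naive arrays lay close together while post-sepsis replicate 2 was the lowest of its group. Without the slide block and without post-sepsis replicate 2 the differences were 2.77 ± 0.48 for Cd5l and 2.24 ± 0.27 for Marco (limma, adjusted p = 0.00366 and 0.00118). With the block and without naive replicate 3 they were 1.08 ± 0.35 for Cd5l and 1.21 ± 0.32 for Marco, which did not pass (limma, adjusted p = 0.103 and 0.0792). With the level of the Y probes as a covariate they were 0.43 ± 0.90 for Cd5l and 0.36 ± 0.50 for Marco (limma, adjusted p = 0.913 and 0.873). The complement receptor Vsig4 of resident macrophages had signal well above background on 3 post-sepsis arrays and on no naive array. It passed the filter through the post-sepsis arrays alone, so no test of it is given. The list counts of 2 higher and 1 lower were the same without post-sepsis replicate 2, with and without the block.

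Other genes with the largest separate rises were of mixed kinds. They were the sugar-phosphate enzyme Pgm2 (1.73 ± 0.26), Arfgef2 of vesicle traffic (1.72 ± 0.30), the cytokine receptor kinase Tyk2 (1.72 ± 0.36), the demethylase Alkbh1 (1.58 ± 0.32), Chsy3 of chondroitin sulfate synthesis (1.54 ± 0.27), the gamma-tubulin partner Tubgcp2 (1.53 ± 0.26), Mtmr10, a member of the myotubularin family (1.49 ± 0.22), the Wnt receptor Fzd6 (1.47 ± 0.28) and the zinc finger gene Zfp532 (1.79 ± 0.28). Pgm2 was at -0.46, -0.26, -0.12 and -0.36 in post-sepsis TAM, against -2.45, -2.31 and -1.15 in naive TAM. Its post-sepsis arrays lay close together and above every naive array. A total of 771 named genes met the same conditions of a rise, no overlap, 1 sign on all slides and signal on all arrays, and 742 those of a fall.

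Genes known from tumour macrophages split. Cxcr4, the receptor of CXCL12, was at -0.48, -0.46, -1.79 and -0.34 in post-sepsis TAM, against 0.68, 1.92 and 0.31 in naive TAM, with separate groups, and fell by 1.91 on the log2 scale (SE 0.27, limma, adjusted p = 0.011). Il1b was at 4.07, 2.24, 1.49 and 4.73 in post-sepsis TAM, against 4.29, 6.13 and 4.00 in naive TAM and Cd274 (PD-L1) at 1.02, 0.28, 0.28 and 1.58 in post-sepsis TAM, against 1.51, 2.88 and 1.07 in naive TAM. Both fell in the slide-block fit (-2.06 ± 0.26 and -1.24 ± 0.25) with overlapping groups, because post-sepsis replicate 4 lay above naive replicates 1 and 4. Arg1, which breaks down arginine, was at 1.23, -1.81, 0.33 and 1.61 in post-sepsis TAM, against -0.23, 0.54 and 0.89 in naive TAM, with 0.88, -0.57 and -1.57 within the slides, so no direction held over the slides. Nos2, Vegfa, Tgfb1, Tnf, Ccl2 and Cxcl12 had overlapping groups and did not pass, and their differences ran from -0.51 to 0.36. The mannose receptor Mrc1 differed by 0.9967 ± 0.32 and the cytokine Il10 by -0.72 ± 0.23, both just short of the threshold (limma, adjusted p = 0.0509 and 0.0523). Of other products that favour tumours, the growth factor genes Pgf and Grn rose, Sema4d fell, and 19 of 22 did not pass. Among all coding genes 11.9% rose and 14.9% fell. Mmp14, a membrane protease of matrix breakdown, rose by 1.09 ± 0.20, while Adam8 and the urokinase receptor Plaur fell. Of the 18 matrix protease genes, none fell without post-sepsis replicate 2, and 2 rose with the block and 4 without it.

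Of 27 interferon response genes measured, 24 did not pass, and Ifit2, Bst2 and Zbp1 rose, near the 11.9% of coding genes that rose. The list median was -0.31, 0.85 and -0.22 within slides 1, 2 and 3, so its direction differed between slides. Without post-sepsis replicate 2, 2 interferon genes rose with the block and 3 without it. The fibroblast and stroma list moved in the same way, with -0.72, 2.07 and -0.04, and none of its 14 genes passed. Its mean level was 3.57, 3.00, 5.18 and 4.44 in post-sepsis TAM, against 3.00, 4.65 and 3.28 in naive TAM, highest on post-sepsis replicate 3. The part of stroma signal in the interferon values was not tested.

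Genes of lipid synthesis rose in part. Of 24 genes of cholesterol synthesis and uptake 5 rose and none fell, and of 17 fatty acid genes 5 rose and 1, Mlxipl, fell. Of all genes 8% rose, and of coding genes 11.9%. The 14-alpha demethylase Cyp51 was at 1.49, 1.21, 1.32 and 1.32 in post-sepsis TAM, against -0.09, 0.11 and 0.85 in naive TAM. All post-sepsis arrays lay above all naive arrays, and naive replicate 4 was the nearest. Lss, which closes the sterol ring, was at 0.86, -0.80, 1.18 and 1.03 in post-sepsis TAM, against -1.40, -2.37 and -0.13 in naive TAM, and the groups overlapped because post-sepsis replicate 2 lay below naive replicate 4. The fatty acid elongase Elovl6 was at 2.46, 2.27, 2.62 and 2.35 in post-sepsis TAM, against 1.43, 1.52 and 1.84 in naive TAM, with separate groups and a difference of 0.84 ± 0.18 (limma, adjusted p = 0.0161). The desaturases Scd1, Scd2, Fads1 and Fads2 rose by 0.73 to 1.59. Leaving out post-sepsis replicate 2, 3 cholesterol genes rose with the slide block and 7 without it.

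Of 17 genes of the amino acid response to the factor ATF4, 4 rose and none fell, where 8% of all genes and 11.9% of coding genes rose. Aldh18a1, the first enzyme of proline synthesis, was at -0.30, -0.96, 0.48 and -0.37 in post-sepsis TAM, against -2.16, -2.12 and -1.20 in naive TAM. It rose by 1.58 ± 0.21 (limma, adjusted p = 0.011), with separate groups. Pycr1, the last enzyme of the same route, rose by 1.24 ± 0.21, the stress factor Ddit3 (CHOP) by 1.08 ± 0.19 and the glutathione-degrading Chac1 by 1.14 ± 0.22, all without overlap. Atf4 itself and Asns did not pass (0.23 ± 0.23 and 0.51 ± 0.30). Among 30 genes of folding and degradation in the endoplasmic reticulum 5 rose, among them Edem1 and Edem2, Dnajc3 and Pdia4. Of 29 lysosome genes 5 rose. Both shares lie near the 11.9% of coding genes that rose. The lysosome genes were the proton pump subunits Atp6v0d1, Atp6v1a, Atp6v1b2 and Atp6v1h, and Npc2, which hands cholesterol out of the lysosome. The alpha-galactosidase gene Gla fell, and the cathepsins on the list did not pass. Without post-sepsis replicate 2, 4 genes of the amino acid response rose with the slide block and 2 without it. In either of these fits 4 genes of the endoplasmic reticulum list, 4 fatty acid genes and 3 lysosome genes rose.

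Replication and mitosis genes rose in part too. Of 30 DNA replication genes 8 rose and of 29 mitosis genes 9 rose, where 8% of all genes and 11.9% of coding genes rose, and none fell. Cdc6, which loads the replicative helicase, was at 0.52, -0.04, 0.60 and 0.19 in post-sepsis TAM, against -1.30, -0.88 and -0.30 in naive TAM. The groups were separate, and the difference was 1.15 ± 0.20 (limma, adjusted p = 0.011). Bub1b of the spindle checkpoint was at 0.58, -0.78, 0.81 and 0.91 in post-sepsis TAM, against -1.58, -1.72 and -0.65 in naive TAM, and post-sepsis replicate 2 lay just below naive replicate 4, so the groups overlapped. Esco2, which ties sister chromatids, rose by 1.01 ± 0.20 without overlap, and the proliferation marker Mki67 at 0.34 ± 0.22 did not pass (adjusted p = 0.245). In the fits without post-sepsis replicate 2, 3 replication and 5 mitosis genes rose with the slide block, and 8 and 13 without it.

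Of these higher lists, the fatty acid, endoplasmic reticulum and lysosome lists had medians above 0 on every slide. Within slides 1, 2 and 3 these were 0.32, 0.37 and 0.56 for fatty acid genes and 0.23, 0.34 and 0.61 for endoplasmic reticulum genes. Lysosome genes had 0.40, 0.23 and 0.65. The replication, mitosis, cholesterol and amino acid response lists were nearly flat on slide 2. Within slides 1, 2 and 3 the median was 0.79, 0.06 and 0.81 for DNA replication, 0.90, -0.01 and 0.64 for mitosis, 0.71, 0.05 and 0.83 for cholesterol synthesis and 0.66, 0.11 and 1.19 for the amino acid response. The melanocyte list was also lowest on slide 2, with 0.55, -0.11 and 0.71. Its mean level over 13 genes was 6.30, 6.16, 5.95 and 6.14 in post-sepsis TAM, against 5.54, 5.54 and 6.11 in naive TAM, and naive replicate 4, on slide 2, was the highest naive array. The mean level of the replication list was 3.00, 2.44, 2.51 and 2.72 in post-sepsis TAM, against 1.75, 2.01 and 2.40 in naive TAM, again with naive replicate 4 highest of its group. One melanocyte gene passed, Tyr, the rate-limiting enzyme of pigment, at 3.20, 2.10, 3.17 and 3.06 in post-sepsis TAM, against 1.24, 0.89 and 2.62 in naive TAM. Its difference was 1.32 ± 0.35 (limma, adjusted p = 0.029), with overlap, and Mc1r and Oca2 had separate groups without passing. The part of melanocyte signal in the lipid, amino acid, replication and mitosis values was not tested.

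**Figure D3:**
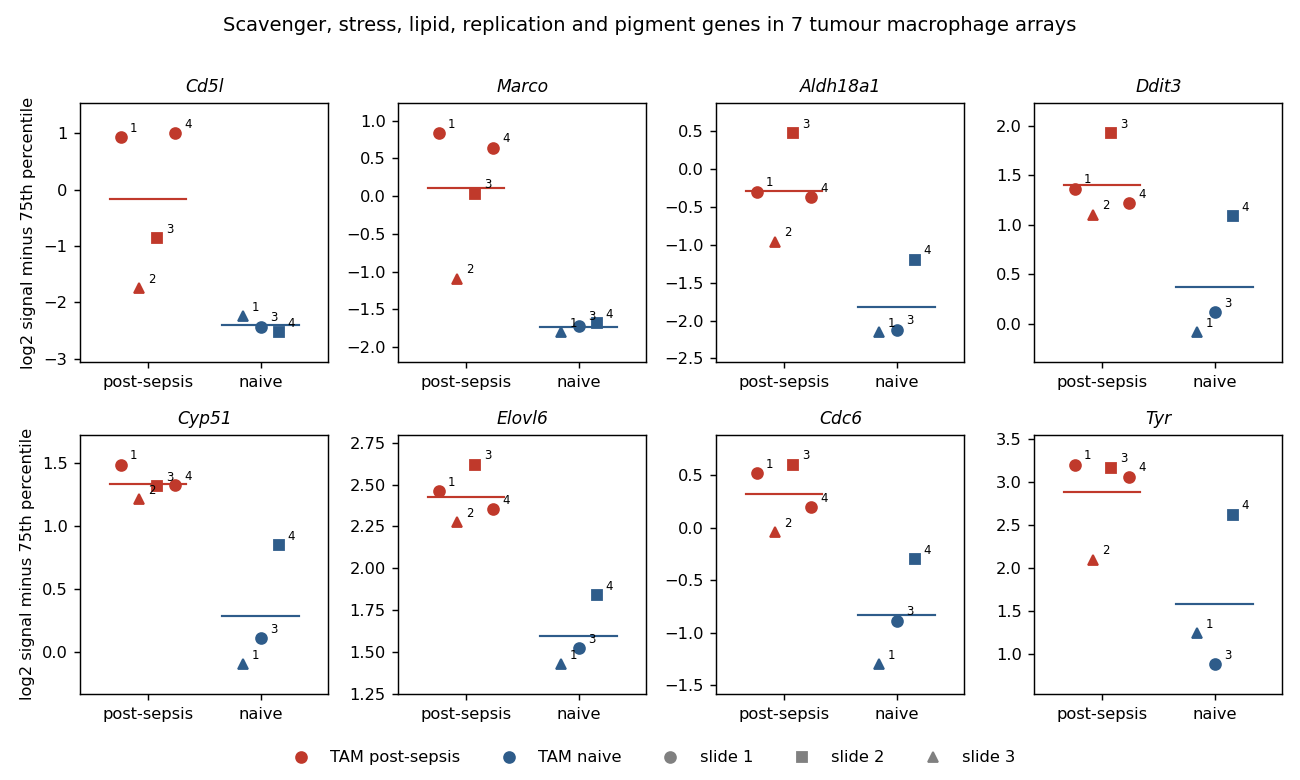
Log2 level (processed signal minus the array's 75th percentile) of 8 genes on each of 4 post-sepsis and 3 naive TAM arrays; numbers are replicates, shapes are slides and lines are group means. All post-sepsis arrays lie above all naive arrays for each gene but Tyr, where post-sepsis replicate 2 is below naive replicate 4, and naive replicate 4 is the highest naive array for Aldh18a1, Ddit3, Cyp51, Elovl6, Cdc6 and Tyr.

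**Figure D4:**
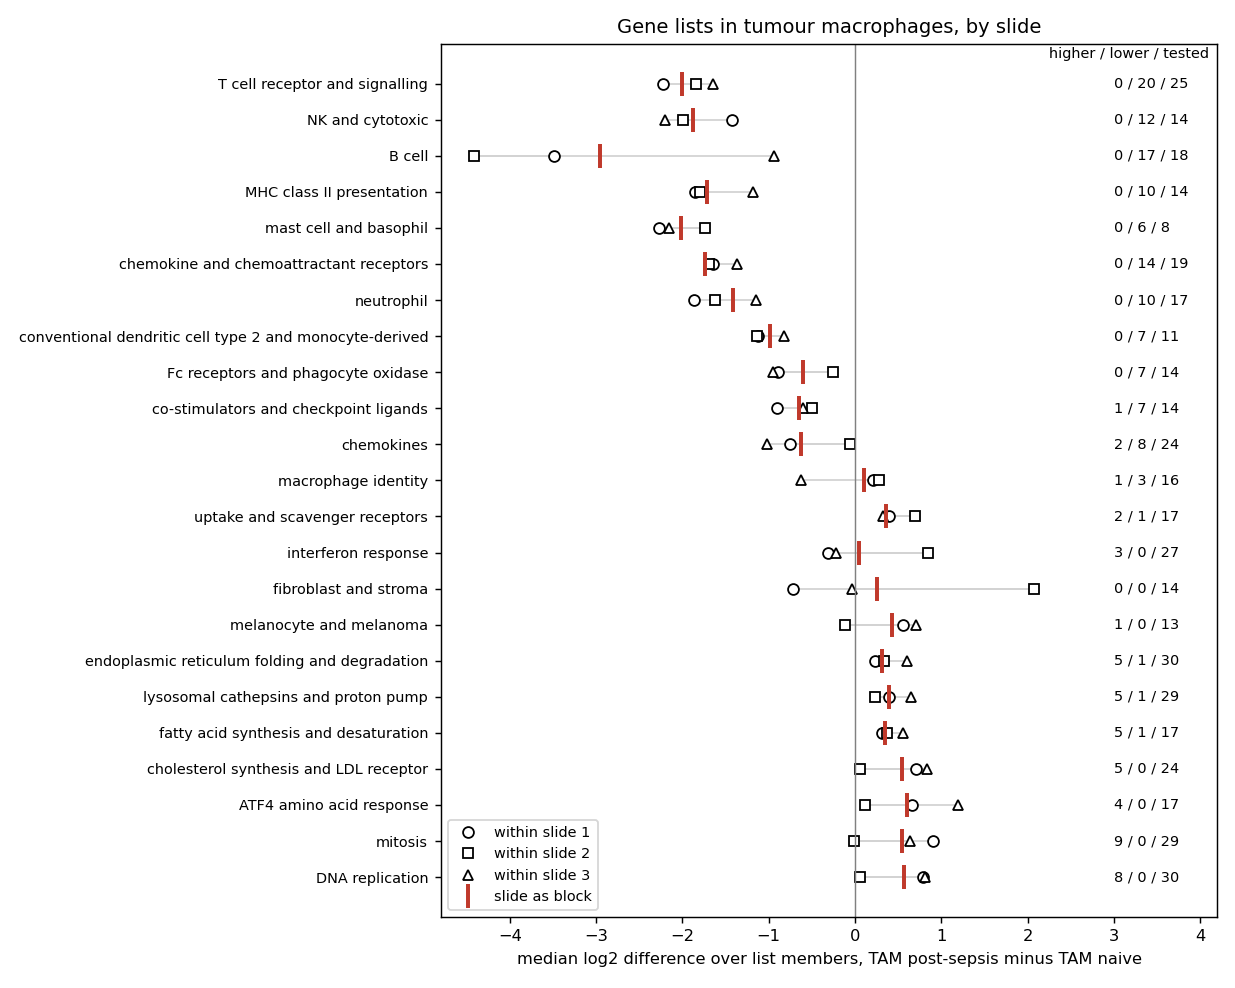
Median log2 difference of the members of 23 gene lists, post-sepsis minus naive TAM, within each slide (open shapes) and with the slide as a block (red ticks); numbers at the right count members that rose, fell and were tested. The T cell, NK cell, B cell, class II and chemoattractant receptor lists lie below 0 on all 3 slides, and mitosis, DNA replication, cholesterol and melanocyte lists lie at or near 0 on slide 2.

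Whether the difference between post-sepsis and naive TAM was the same as that between post-sepsis and naive M0 was tested in 1 fit over 15 arrays without a slide block. The difference of the differences passed for 523 of 31747 genes and probes (1.65%), 280 above 0 (0.882%) and 243 below 0 (0.765%). With the slide as a block 443 passed, 375 of them among the 523. Cd5l was at -0.17 in post-sepsis TAM and -2.41 in naive TAM, and at 4.08 in post-sepsis M0 and 7.65 in naive M0, as group means. Its difference was thus 2.24 ± 0.54 in TAM and -3.57 ± 0.50 in M0, and the TAM difference exceeded that in M0 by 5.81 ± 0.74 (limma, adjusted p = 0.00122). Marco went the same way, with 1.84 in TAM, -1.83 in M0 and 3.67 ± 0.51 between them (limma, adjusted p = 0.00217).

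The chemokine Ccl5 gave the largest difference above 0, with -1.18 ± 0.33 in TAM, -7.40 ± 0.31 in M0 and 6.22 ± 0.45 between them (limma, adjusted p = 4.57e-05). Interferon genes followed. Of 28 interferon genes 13 had a TAM difference above that in M0 and none below, and the M0 median was -1.93. Ifit2 and Ifit3, which bind viral RNA, differed between TAM and M0 by 4.78 ± 0.58 and 4.36 ± 0.44. Plxdc2, a membrane receptor, was near level in TAM (0.22 ± 0.42) and lower in post-sepsis M0 (-4.08 ± 0.39).

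Of 187 genes with a symbol below 0, 150 were higher in post-sepsis M0 (adjusted p under 0.05), and 101 had a TAM difference below 0. Both differences are terms of the contrast that chose these genes, and no share over all genes is given. The counts are therefore not read as a result about them. In Satb1, at -2.31 in TAM and 0.29 in M0, the M0 difference did not pass (limma, adjusted p = 0.89). The adenylate kinase Ak4 differed by 0.20 ± 0.30 in TAM and 4.88 ± 0.28 in M0. The monocyte attractants Ccl2 and Ccl7 differed by 0.37 and 0.38 in TAM and by 4.27 and 4.55 in M0, and the desaturase Scd2 by 0.69 and 5.05. Slco4a1, an organic anion transporter, was lower in post-sepsis TAM (-1.69 ± 0.42) and higher in post-sepsis M0 (2.75 ± 0.39). Of 24 cholesterol genes 8, of 17 fatty acid genes 8, of 17 amino acid response genes 9 and of 29 mitosis genes 8 had a TAM difference below that in M0, and their M0 medians were 1.92, 1.47, 2.69 and 1.90. Of T cell genes 1 of 26 and of B cell genes 1 of 18 passed this test. The M0 median of the T cell list was 0.14. The count was 2112 without post-sepsis replicate 2 and 244 without naive replicate 1.

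**Figure D5:**
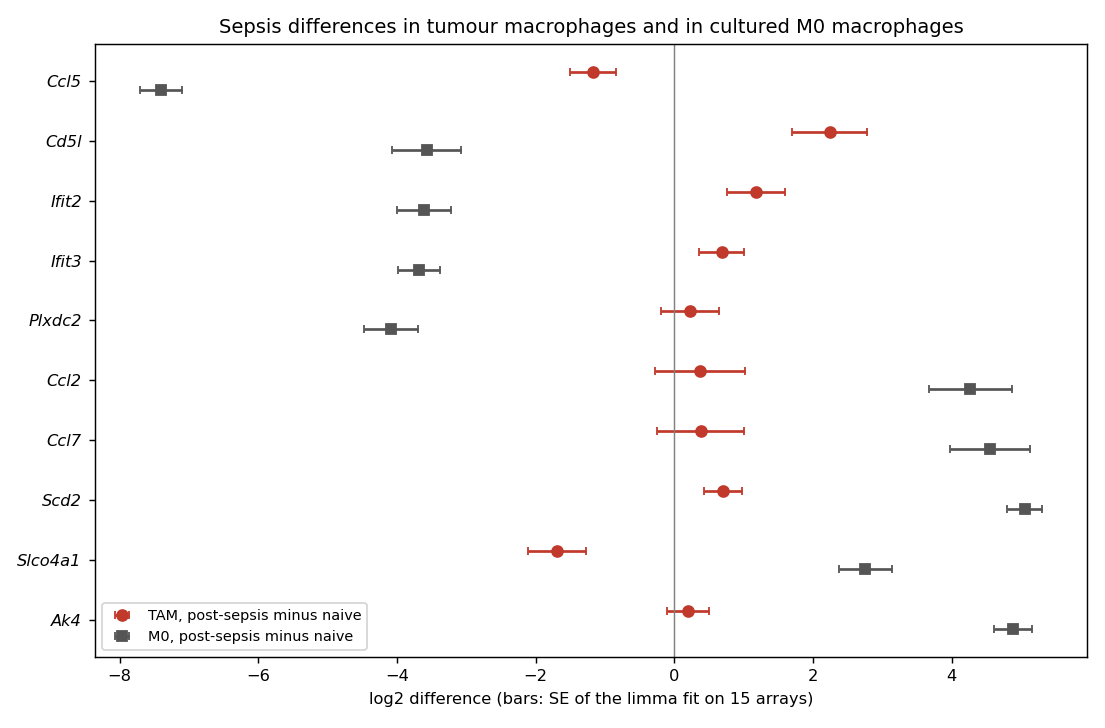
Log2 difference, post-sepsis minus naive, in TAM (red circles, 4 and 3 arrays) and in M0 (grey squares, 4 arrays each), for the 5 genes with the highest and the 5 with the lowest TAM minus M0 difference among genes that passed and were well above background on all 15 arrays; bars are SE of the limma fit. Cd5l is higher in post-sepsis TAM and lower in post-sepsis M0, and Slco4a1 the other way round.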

How the data were processed

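Total RNA was labelled with Cy3 and hybridised to 1-colour Agilent mouse arrays. The deposited scanner files hold intensity values per spot, background-subtracted and detrended within each array by Agilent Feature Extraction, version 10.7.3.1 per the file headers and 12.5 per the submitters' processing notes, with probes placed on mm9. Of the deposited flags and spot types (other columns), control spots and 58 probes with an outlier spot were left out. Spots of a probe were averaged, log2 of the deposited processed signal was taken, and each array's 75th percentile was subtracted. A gene was represented by its brightest probe, and probes well above background on 3 arrays of 1 group were kept. Symbols came from RefSeq by accession for 27656 probes, by symbol for 3401 and by synonym for 321, from the file for 1328, while 16246 lincRNA probes and 6729 others had none.

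Groups were compared with limma 3.58.1 in R 4.3.3 (lmFit and eBayes, Benjamini-Hochberg over all genes), without and with the slide as a block, and TAM with M0 in an interaction fit. The fits were tested on simulated data. The value table of the series was not used, since its columns were reported to match other samples' scanner files. Alternatives were quantile scaling, normexp with offset 50, another centring, other filters, array weights, a random slide block, a replicate block, naive replicate 2 added, each array left out and, chosen after seeing the data, the mean over probes, repeat probes left out and a Y-probe covariate.

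Named genes were the 12 largest rises and the 12 largest falls with separate groups, 1 sign on all slides and signal on all arrays, list members of small p or on which a list was split, 12 tumour-macrophage genes, and the 5 highest and 5 lowest differences between TAM and M0 that passed with signal on all 15 arrays. The gene lists, the named-gene rule and the comparison itself were chosen with earlier results of these data known. Same-numbered arrays of both groups deviated from their group means with correlations of -0.573, 0.205 and 0.279. These values cannot settle whether the numbers pair the samples, and the main fits did not treat them as pairs. Arrays of both groups on 1 slide had correlations of 0.19 and 0.408 (slide 1), 0.287 (slide 2) and 0.792 (slide 3). Precision is limited by the 7 arrays. Some genes are not reported here.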

Additional observations from a re-analysis of the deposited data

Results flagged for a closer look

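Among 181 groups of 4 arrays looked at (a gene, gene list or probe class), 22 held 1 array apart from the other 3 by Dixon's criterion, where chance gives about 1 in 20. In post-sepsis TAM, replicate 2 was the array apart in most. It was the high array for LOC100040235 (3.28), Gm20877 (1.56), 4921509O09Rik (1.98), Mlxipl (5.96) and Csf3r (9.14), and for the levels of GGA repeat probes (4.15), of Ssty1, Sly and Orly probes (-0.56), of olfactory receptors (-5.69) and of all probes (-2.89). It was the low array for Alkbh1 (-0.76), Gins2 (-1.17), Rfc3 (-1.19), Nuf2 (-1.56), Lss (-0.80), Zbp1 (0.060) and Tyr (2.10), and for the mean levels of type 1 dendritic cell genes (-1.49) and of uptake and scavenger receptors (0.24). Replicate 3 was the low array for Cxcr4 (-1.79), Cd3g (-6.83) and the eosinophil list (-3.03), and replicate 1 the high array for the respiratory chain list (6.13).

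The difference between post-sepsis and naive was not the same in TAM as in M0 for 27 of the genes followed, by the interaction test of limma on 15 arrays without a slide block. With the slide as a block 22 of the 27 passed, and Chac1, Cpa3, Mx1, Npc2 and Zbp1 did not. TAM minus M0 was above 0 for Ccl5 (6.22), Cd5l (5.81), Ifit2 (4.78), Ifit3 (4.36), Plxdc2 (4.31), Marco (3.67), Zbp1 (3.42), Npc2 (2.17) and Mx1 (1.97). It was below 0 for the lectin Cd209a (-5.86), the desaturases Fads2 (-5.12) and Scd2 (-4.36), the elongase Elovl6 (-2.25), the NK receptor subunit Klrd1 (-4.87), Ak4 (-4.69), the decoy receptor Il1r2 (-4.68), Slco4a1 (-4.45) and the chemokines Ccl7 (-4.17) and Ccl2 (-3.90). It was also below 0 for P2ry10 (-3.57), H2-Oa (-3.56), H2-Eb1 (-2.60), the granulocyte factor Cebpe (-3.35), Cpa3 (-2.85), the integrin Itgax (-2.77), the lymphocyte receptor Cd7 (-2.55) and Chac1 (-2.33).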

How the results depend on the processing

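Without the slide block, 0 genes passed in limma under quantile scaling, normexp, other centring, other filters, naive replicate 2 added, the mean over probes and repeat probes left out. Leaving out 1 array gave 0 to 9736, the highest without post-sepsis replicate 2. Array weights gave 14958, the slide block 9998 and the Y-probe covariate 1. The replicate block gave 9858, but it used replicates 1, 3 and 4 only and so also left out post-sepsis replicate 2. With the slide block, leaving out 1 array gave 0 to 8240 genes (0 without naive replicate 3, 6140 and 6352 without post-sepsis replicates 1 and 4), and adding naive replicate 2 gave 0. Quantile scaling called 8563, of which 40.2% were higher against 23.1% under 75th-percentile centring, with 6817 genes called in both, and moved the median of all genes to 0.06 from -0.06. No filter on dim probes called 9230, 10.2% of them higher, and normexp 14319, 33.8% of them higher. The difference between TAM and M0 passed for 1001 genes under quantile scaling, 304 without the filter and 244 to 2112 with 1 array left out. Of the 109 named genes called, 109 lost the call without the slide block, 109 without naive replicate 3 and 109 with naive replicate 2 added, where Cd274 and Tyrobp also turned their sign.

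With the Y-probe covariate, signs turned for Ssty1 (0.32), LOC100040235 (0.49), Gm20877 (0.18), Gm20822 (0.16), 4921509O09Rik (0.71), Skint4 (0.39), Cd22 (0.14), Itgam (0.58), Stab2 (1.17), Mlxipl (0.77), Csf3r (0.55), Cxcl11 (0.16), Nos2 (-1.44), Mrc1 (-0.54), Ccl2 (-2.76), Cxcl12 (-2.80), C1qc (-0.46), Gins2 (-0.41), Rfc3 (-0.26), Bub1b (-0.037), Top2a (-0.020), Nuf2 (-0.38), Lss (-0.22), Fads2 (-0.057), Fads1 (-0.35), Zbp1 (-1.15), Tyr (-0.052), Sel1l (-0.037), Npc2 (-0.15) and Atp6v1h (-0.37). With naive replicate 2 they turned for Arg1 (0.90), Tnf (0.69), Cd274 (0.32) and Tyrobp (0.15). Without post-sepsis replicate 2 or naive replicate 1 Arg1 was at 0.26 (-1.07 to 0.26 over the arrays left out), and without the block and that post-sepsis array Arg1 was at 0.66 and Tnf at 0.28. Without post-sepsis replicate 3 or naive replicate 4, Nos2 was at -0.44 (-0.44 to 0.68 over the arrays left out), Ccl2 at -0.42 (-0.42 to 0.67) and Cxcl12 at -0.61 (-0.61 to 0.72). Ccl2 was at -0.0047 under quantile scaling, and Mlxipl at 0.23 without repeat probes. The level of the Y probes follows the group, so lost calls and turned signs with that covariate are not read as a result about the genes. The causes were not tested. Levels of probes near background were used without a floor at the dimmest signal well above background, so the size of their differences is uncertain. Cd3g on post-sepsis replicate 3, at -6.83, lay below that signal, which was -4.61 on this array. With 3 residual degrees of freedom the slide-block fit rests on few arrays.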
